A study of Sus scrofa with 75 samples.

Results

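Lung and spleen of the same pigs were compared directly: 8 lung and 8 spleen Illumina RNA-seq libraries, chosen by their labelled tissue and paired by the animal code in their titles, of 75 labelled samples in all. The study set out to describe the transcriptome of Chinese local pigs with long and short reads of heart, kidney, liver, lung and spleen. All animals were adult males of 12 months. Of the 8 animals, 4 carried the code BS (BS1 to BS4) and 4 the code DSE (DSE1 to DSE4), and the labels do not explain the codes or name a strain or treatment. RNA was extracted with Trizol and acid phenol, and ribosomal RNA was depleted before Illumina sequencing. There was 1 PacBio full-length library per pig group and organ, 4 of them from lung and spleen. The samples carrying the code DT were left out. The labels do not say that the animals of a group were independent in litter or herd, so p-values measure the spread between these samples.

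The lung brings air and blood together across a thin wall of flat alveolar type I cells and capillary endothelium, kept open by the surfactant that alveolar type II cells secrete and swept clean by ciliated and secretory cells of the airways. The spleen filters blood: macrophages of the red pulp take up old red cells and recycle their iron, while B and T cells gather in the white pulp on a scaffold of stromal cells that secrete chemokines. Both organs are rich in vessels, resident macrophages, blood leukocytes and smooth muscle, in the airways and vessels of the lung and in the capsule and trabeculae of the pig spleen.

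Levels are in TPM, a measure of transcript abundance scaled for transcript length and for the library total. Differences are lung minus spleen on log2(TPM + 1), a scale that understates changes of low genes, with their standard error (SE). Means are given ± SD over 8 libraries. A gene was called higher in an organ at a Benjamini-Hochberg adjusted p below 0.05 (limma, with the animal as a block) and at least a 2-fold difference. It was called level where the 95% interval of the difference lay within 2-fold either way. In whole tissue, fewer cells of a type and less RNA per cell cannot be told apart.

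The libraries matched their organ labels. The lung transcription factor NKX2-1 ranged from 57.8 to 96.7 TPM in lung and reached at most 0.0352 TPM in spleen, while TLX1, the transcription factor required to form a spleen, ranged from 31.4 to 78.4 TPM in spleen and reached at most 0.0216 TPM in lung. Genes at 1 TPM or more numbered 14346 ± 370 in lung (13591 to 14902) and 13418 ± 211 in spleen (13053 to 13715). Lung had more in 8 of 8 animals, by 928 on average (exact sign-flip test, two-sided p = 0.00781, the smallest that 8 pairs can give). Mitochondrial transcripts took 7.49 ± 0.72% of lung and 6.87 ± 1.68% of spleen TPM (exact p = 0.375). The 100 most abundant genes held 40.5 ± 2.4% in lung and 45.7 ± 3.3% in spleen, less in lung in 7 of 8 animals (exact p = 0.0156).

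Among the 10 pairs of the 5 organs, lung and spleen were the most alike. Of 16481 genes tested in a fit of all 40 libraries, 3890 (23.6%) differed between lung and spleen, 2784 of them higher in lung and 1106 higher in spleen. The next lowest count was 5387 (32.7%), between heart and liver (kidney and liver with median-ratio scaling, 4553 against 3410 for lung and spleen), followed by 6315 (38.3%) between kidney and spleen, and the highest was 10248 (62.2%), between liver and lung. Across genes, which are not independent replicates, the mean log2 levels of lung and spleen correlated with Pearson's r = 0.856 and Spearman's rho = 0.848. Kidney and liver came next in r, at 0.767. Single libraries were nevertheless distinct. The lung and spleen of 1 animal correlated at 0.788 to 0.821, below every pair of lung libraries (0.881 to 0.979) and every pair of spleen libraries (0.943 to 0.983).

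In the paired comparison 15230 genes were tested. Lung was higher for 2767 genes (18.2%), spleen for 1094 (7.18%), and 9455 (62.1%) were level. By adjusted p alone, 5623 (36.9%) were higher in lung and 2761 (18.1%) in spleen. All 8 lung libraries lay above all 8 spleen libraries for 2752 genes (18.1%), and the reverse held for 966 (6.34%). The median difference over all genes was 0.137. Scaling the libraries by median ratios moved that median to -0.0421 and gave 2429 genes higher in lung and 1297 in spleen, and no call turned to the opposite organ.

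**Figure D1:**
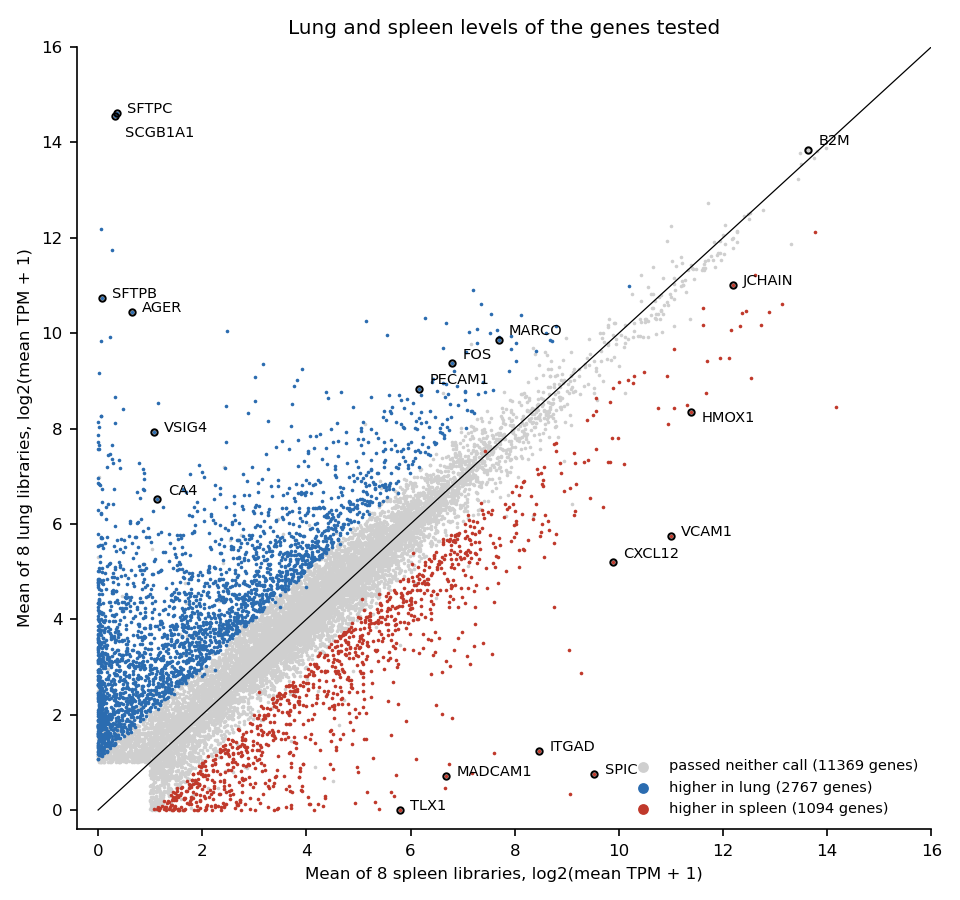
Mean level of each tested gene in the 8 spleen libraries (x axis) and the 8 lung libraries (y axis), both as log2(mean TPM + 1). Blue points are the 2767 genes called higher in lung, red points the 1094 higher in spleen, grey points passed neither call, circled points are named and the line marks equal levels. The genes farthest from the line on the lung side are SFTPC and SCGB1A1, and SPIC is the labelled gene farthest on the spleen side, while B2M lies close to the line.

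Gene lists for cell types and pathways were drawn up from textbook knowledge with earlier results of these data known. A list gene that is high in only 1 organ enters the test through that organ, so list counts describe the lists and carry no test of their own. Listed symbols that the annotation does not carry, or that stayed under 1 TPM, were not analysed here. Medians of a list are set beside 0.137, the median of all genes tested.

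The largest list medians were those of lung epithelium. Surfactant protein C, SFTPC (chromosome 14: 6440309-6443095, genome build susScr11), the hydrophobic surfactant protein that marks alveolar type II cells, ranged from 13899 to 53199 TPM in lung with a median of 22530, and from 0.104 to 0.621 TPM in spleen with a median of 0.222. No library came near the other organ, and the difference was 14.12 ± 0.23 (SE, adjusted p = 1.82e-11). SFTPB and SFTPA1, the other abundant surfactant proteins, reached 1711 ± 659 and 4652 ± 1905 TPM in lung and 0.0508 ± 0.068 and 0.0429 ± 0.068 TPM in spleen. SFTPD, a surfactant lectin, stood at 231 ± 152 TPM in lung and was at 0 in all spleen libraries except DSE4 (0.0202 TPM). SLC34A2, the phosphate transporter of type II cells, ranged from 235 to 666 TPM in lung and from 0.0907 to 0.454 TPM in spleen. Of 11 alveolar type II genes tested, 9 were higher in lung and 0 in spleen (median 6.27). The 2 exceptions were LPCAT1, a phospholipid acyltransferase (122 ± 68.5 TPM in lung, 57.3 ± 14.5 in spleen), and the transcription factor ETV5 (32.9 ± 12.4 and 51.7 ± 13.4 TPM).

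The gas exchange surface and the airways followed the same direction. AGER, the receptor that marks alveolar type I cells, ranged from 1013 to 1723 TPM in lung and from 0.355 to 0.815 TPM in spleen, a difference of 9.79 ± 0.11 (SE, adjusted p = 1.33e-12). All 13 alveolar type I genes tested were higher in lung (median 4.61), among them the water channel AQP5 (201 ± 66.6 against 0.0136 ± 0.0188 TPM) and the caveolar protein CAV1 (1002 ± 396 against 45.7 ± 16.8 TPM), which endothelium also makes. SCGB1A1, the secretoglobin of club cells, spread from 8564 to 50093 TPM in lung, with a median of 18218. It was at 0 in 6 spleen libraries, at 0.329 TPM in BS4 and at 1.67 TPM in BS3. Of 12 airway secretory genes, 10 were higher in lung. The secretoglobin SCGB3A2 (189 ± 128 TPM) and BPIFA1, an antimicrobial protein of the upper airways named after its values were seen, were listed at 0 in all spleen libraries.

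All 14 ciliated cell genes tested were higher in lung (median 3.14). FOXJ1, the master regulator of motile cilia, ranged from 26.6 to 85.4 TPM in lung and from 0 to 0.269 TPM in spleen. CAPS and TPPP3, both abundant in ciliated cells, stood at 67.4 ± 40.5 and 265 ± 111 TPM in lung against 0.766 ± 0.34 and 12.0 ± 8.6 TPM in spleen. All 15 genes of epithelial junctions and keratins were also higher in lung (median 4.27). The tight junction protein CLDN18 ranged from 145 to 426 TPM in lung and was listed at 0 in all 8 spleen libraries. CDH1 and EPCAM, which all epithelia share, kept low levels in spleen, at 7.42 ± 4.94 and 9.62 ± 6.93 TPM against 116 ± 17.4 and 195 ± 32.8 TPM in lung. Among the largest lung differences were also CBR2, a carbonyl reductase (2765 to 5052 TPM against 0.0548 to 0.597), and PIGR, the receptor that carries IgA across epithelium (139 to 853 TPM against 0.159 to 0.763), both on the airway secretory list. CYP4B1, a cytochrome P450 on no list, ranged from 553 to 1292 TPM in lung and from 0 to 0.125 TPM in spleen.

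**Figure D2:**
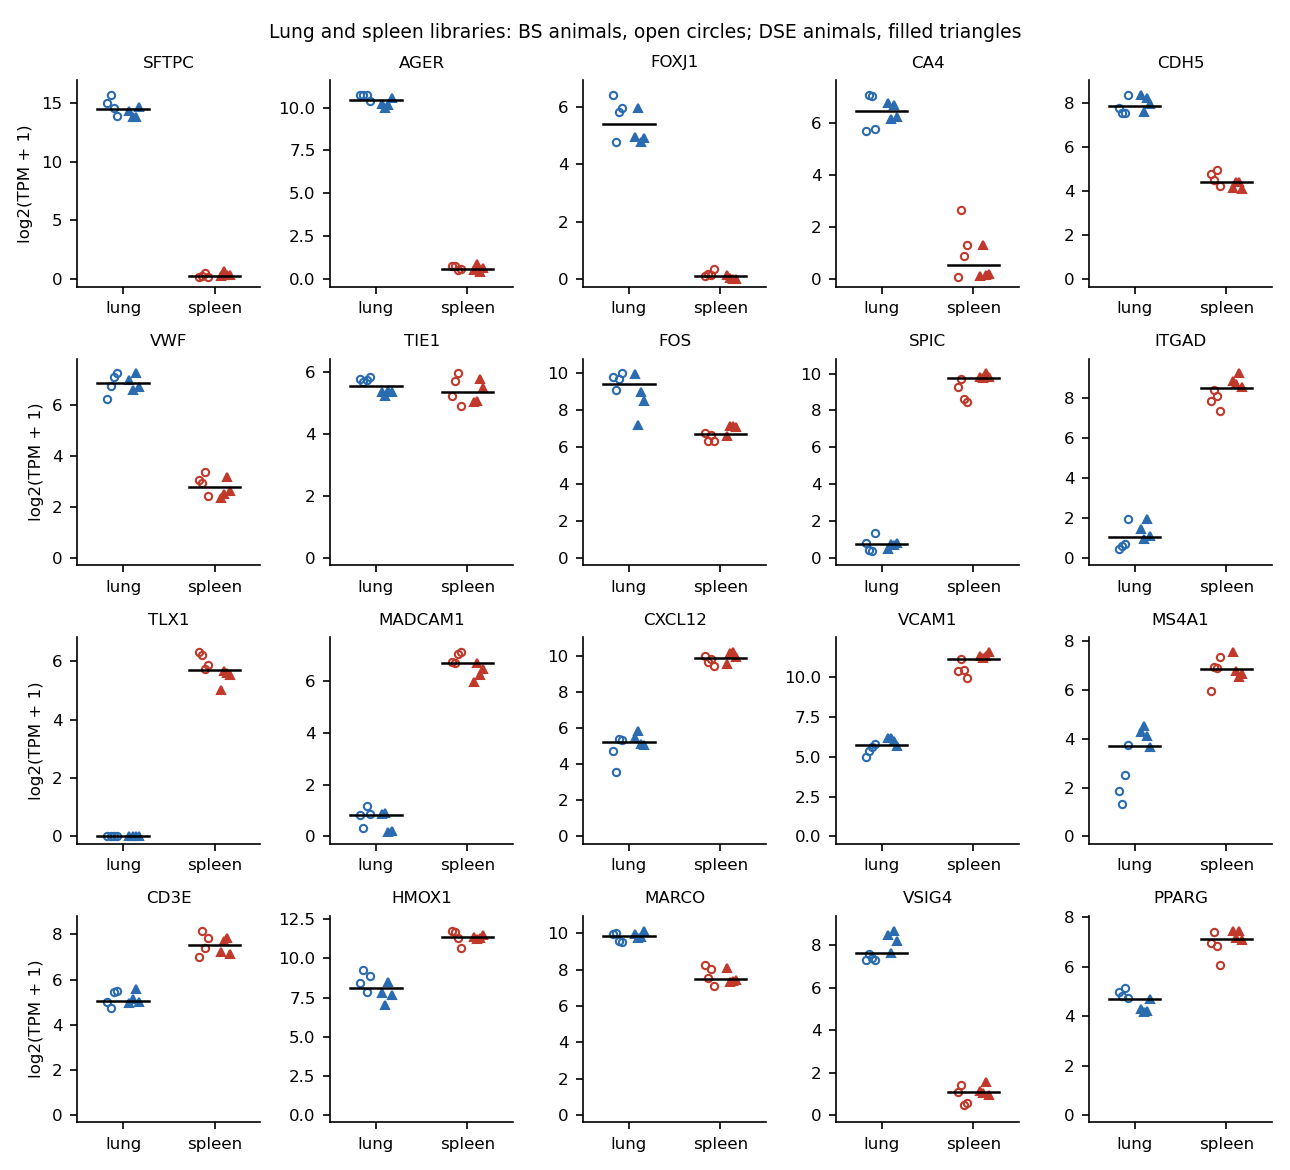
Level of 20 genes in each lung library (blue) and spleen library (red) as log2(TPM + 1), with BS animals as open circles, DSE animals as filled triangles and the median as a bar. The organs overlap in TIE1 alone of the 20 genes, and spleen lies above lung for SPIC, ITGAD, TLX1, MADCAM1, CXCL12, VCAM1, MS4A1, CD3E, HMOX1 and PPARG.

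The spleen was set apart by the transcription factors of its stroma. TLX1 (chromosome 14: 112207360-112213955) was at 0 in 7 lung libraries and had a median of 50.6 TPM in spleen, a difference of -5.74 ± 0.14 (SE, adjusted p = 3.66e-10). NKX2-3, which patterns splenic vessels and lymphoid stroma, ranged from 15.2 to 22.3 TPM in spleen and from 0 to 0.211 TPM in lung. WT1, a factor of splenic stroma and mesothelium, ranged from 19.5 to 40.0 TPM in spleen and from 0 to 0.523 TPM in lung. NKX2-5 (16.7 ± 4.3 TPM in spleen) was listed at 0 in all lung libraries. Of 12 splenic stroma genes tested, 6 were higher in spleen, 0 in lung and 4 were level. TCF21, a mesenchymal factor that both organs need in development, was level (104 ± 30.4 TPM in lung, 81.0 ± 8.0 in spleen).

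Stromal and vascular surface molecules added to this. VCAM1, an adhesion molecule for leukocytes made by splenic stroma and red pulp macrophages (chromosome 4: 117496911-117511637), ranged from 961 to 3011 TPM in spleen and from 30.1 to 70.3 TPM in lung, a difference of -5.20 ± 0.17 (SE, adjusted p = 2.73e-09). CXCL12, the chemokine that retains lymphocytes and blood progenitors, had a median of 958 TPM in spleen and 37.2 TPM in lung, with no overlap between libraries (-4.79 ± 0.21). MADCAM1, an addressin of the splenic marginal sinus, ranged from 61.7 to 140 TPM in spleen and from 0.115 to 1.26 TPM in lung. Other genes with the largest spleen differences were SMOC1, a secreted matrix protein (-6.39 ± 0.17), the cadherin CDH2 (-5.69 ± 0.18) and MSC, a transcriptional repressor (-4.54 ± 0.18). In CDH2 the ranges were 44.6 to 145 TPM in spleen and 0.678 to 1.27 TPM in lung.

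Lung mesenchyme carried a different set of factors. FOXF1, required for lung vessels and mesenchyme, stood at 80.5 ± 21.9 TPM in lung and 1.36 ± 0.36 in spleen. TBX4 and TBX5, T-box factors of the developing lung, stood at 25.5 ± 6.7 and 18.3 ± 3.4 TPM in lung, with TBX5 listed at 0 in all spleen libraries. Of 12 lung mesenchyme genes, 8 were higher in lung (median 1.66) and 2 in spleen, the latter FGFR4, a fibroblast growth factor receptor (-1.85 ± 0.26), and SCN7A, a sodium channel (-1.19 ± 0.14). Fibroblast and matrix genes were higher in lung for 12 of 19 and in spleen for 1 (median 1.21). Dermatopontin, DPT, stood at 52.0 ± 38.8 against 0.981 ± 0.59 TPM, and the small proteoglycan decorin, DCN, at 418 ± 222 against 72.5 ± 39.3 TPM. Fibrillar COL3A1 was level, at 202 ± 90 and 170 ± 57 TPM. PDGFRA, the gene higher in spleen, did not pass in the DSE animals alone (-0.11, adjusted p = 0.754).

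Red pulp genes gave the largest macrophage difference. SPIC, the transcription factor that specifies red pulp macrophages (chromosome 5: 82726337-82795864), ranged from 349 to 1032 TPM in spleen with a median of 850.4, and from 0.307 to 1.55 TPM in lung with a median of 0.668. The difference was -8.71 ± 0.23 (SE, adjusted p = 7.04e-10), the largest of any named gene on the spleen side. ITGAD, the integrin alpha D chain (chromosome 3: 17136187-17169667), ranged from 161 to 589 TPM in spleen and from 0.355 to 2.86 TPM in lung. Genes of heme and iron handling were higher in spleen by smaller factors. HMOX1, which opens heme, ranged from 1609 to 3487 TPM in spleen and from 130 to 619 TPM in lung. The iron exporter SLC40A1 spread from 216 to 1330 TPM in spleen and from 14.4 to 155 TPM in lung. Ferritin light chain, FTL, stood at 13867 ± 2180 TPM in spleen and 4478 ± 1177 TPM in lung. Of 12 genes tested on this list, 11 were higher in spleen and 0 in lung (median -2.87). The exception was the transferrin receptor TFRC (24.6 ± 5.9 TPM in lung, 13.2 ± 4.4 in spleen).

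Macrophage genes did not share a direction. The complement C1q chains, which tissue macrophages secrete, were higher in spleen: C1QA ranged from 3328 to 5809 TPM in spleen and from 752 to 1591 TPM in lung (-2.19 ± 0.12, adjusted p = 8.56e-08). The growth factor receptor CSF1R stood at 474 ± 133 and 134 ± 24 TPM. On the lung side, the scavenger receptor MARCO ranged from 733 to 1130 TPM against 137 to 301 TPM in spleen (2.20 ± 0.14). The mannose receptor MRC1 ranged from 50.9 to 78.6 TPM against 1.31 to 11.9 TPM, and the chitinase CHIA from 29.4 to 96.2 TPM against 0.281 to 1.06 TPM. VSIG4, a complement receptor of resident macrophages named after its values were seen, ranged from 156 to 413 TPM in lung and from 0.409 to 1.90 TPM in spleen. The hemoglobin scavenger receptor CD163, also named afterwards, was higher in spleen in 7 of 8 animals, with overlapping ranges of 256 to 1418 and 172 to 597 TPM.

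Across the general macrophage list 8 of 12 genes were higher in spleen and 3 in lung (median -1.87). The 3 were lysozyme, LYZ (126 to 4640 TPM in lung, 24.5 to 191 in spleen), the endotoxin co-receptor CD14 (33.1 ± 21.03 and 13.8 ± 8.3 TPM) and the phosphatidylserine receptor TIMD4 (28.9 to 165 and 13.1 to 56.2 TPM), whose call was lost in the BS animals alone (0.95). Of 9 alveolar macrophage genes, 4 were higher in lung and 1 in spleen. The 1 was PPARG, the nuclear receptor on which alveolar macrophages depend and which adipocytes and other cells also use. It ranged from 65.6 to 174 TPM in spleen and from 16.7 to 34.1 TPM in lung, with no overlap (-2.42 ± 0.22, adjusted p = 3.74e-06). The fat cell gene ADIPOQ stayed at 0.831 ± 0.685 TPM in lung and 0.0217 ± 0.0116 TPM in spleen. Of 6 adipocyte genes tested, 4 were higher in lung and 2 level. Which cells held PPARG in either organ was not tested.

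Lymphocyte genes were higher in spleen. MS4A1, the CD20 surface protein of B cells, ranged from 60.5 to 187 TPM in spleen with a median of 114, and from 1.51 to 22.2 TPM in lung with a median of 11.9 (-3.58 ± 0.33, adjusted p = 4.47e-06). Of 12 B cell genes tested, 11 were higher in spleen and the signalling adaptor BANK1 was level (29.6 ± 15.1 TPM in lung, 32.7 ± 6.3 in spleen). The list's median was -2.77, and its summed level ran from 47.0 to 191 TPM in lung and from 471 to 1110 TPM in spleen. CXCR5, which guides B cells into follicles, stood at 18.2 ± 7.9 TPM in spleen and 1.38 ± 0.38 TPM in lung.

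Plasma cell genes divided. MZB1, a chaperone of antibody secretion, ranged from 149 to 609 TPM in spleen and from 22.2 to 94.7 TPM in lung. JCHAIN, the joining chain of secreted IgA and IgM, ranged from 2464 to 7602 TPM in spleen and from 210 to 7446 TPM in lung, so the organs overlapped. The lung of DSE2 held the 7446 TPM, and 6 of 8 animals were higher in spleen (-1.89 ± 0.45, adjusted p = 0.00439). In the DSE animals alone JCHAIN did not pass (-1.02, adjusted p = 0.198). XBP1, a secretory pathway factor that epithelium also uses, was level (219 ± 50.5 TPM in lung, 158 ± 28 in spleen). Of 9 plasma cell genes, 5 were higher in spleen and 2 level (median -1.20), while 3 were higher in spleen in the DSE animals alone and 7 in the BS animals alone.

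T cell genes were higher in spleen for 9 of 13 tested, and 0 were higher in lung (median -1.33). CD3E, a chain of the T cell receptor complex, ranged from 126 to 286 TPM in spleen and from 25.5 to 47.1 TPM in lung (-2.37 ± 0.15, adjusted p = 2.72e-07). The kinase LCK stood at 81.8 ± 21.01 and 17.6 ± 5.3 TPM. CD4 was level (16.5 ± 4.5 TPM in spleen, 21.8 ± 7.4 in lung), and so was CD8B (7.18 ± 2.01 and 5.06 ± 1.93 TPM). Natural killer and cytotoxic genes leaned to spleen less than T cell genes did (median -0.46). Of 12 tested, 4 were higher in spleen, 1 in lung and 5 level (3 with median-ratio scaling). Over all genes 7.18% were higher in spleen, 18.2% in lung and 62.1% level. The factors EOMES (-2.53 ± 0.17) and TBX21 (-2.24 ± 0.23) and the receptor KLRK1 (-2.02 ± 0.20) were higher in spleen, while the granule gene NKG7 was level (74.8 ± 30.2 TPM in lung, 93.5 ± 20.1 in spleen). The single lung call, granzyme B (GZMB, 1.16 ± 0.45, adjusted p = 0.0491), lost its threshold in 10 of the 16 settings listed at the end. Of 6 dendritic cell genes, 3 were higher in spleen, with XCR1 of cross-presenting cells at 11.9 ± 4.3 against 3.25 ± 0.83 TPM.

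**Figure D3:**
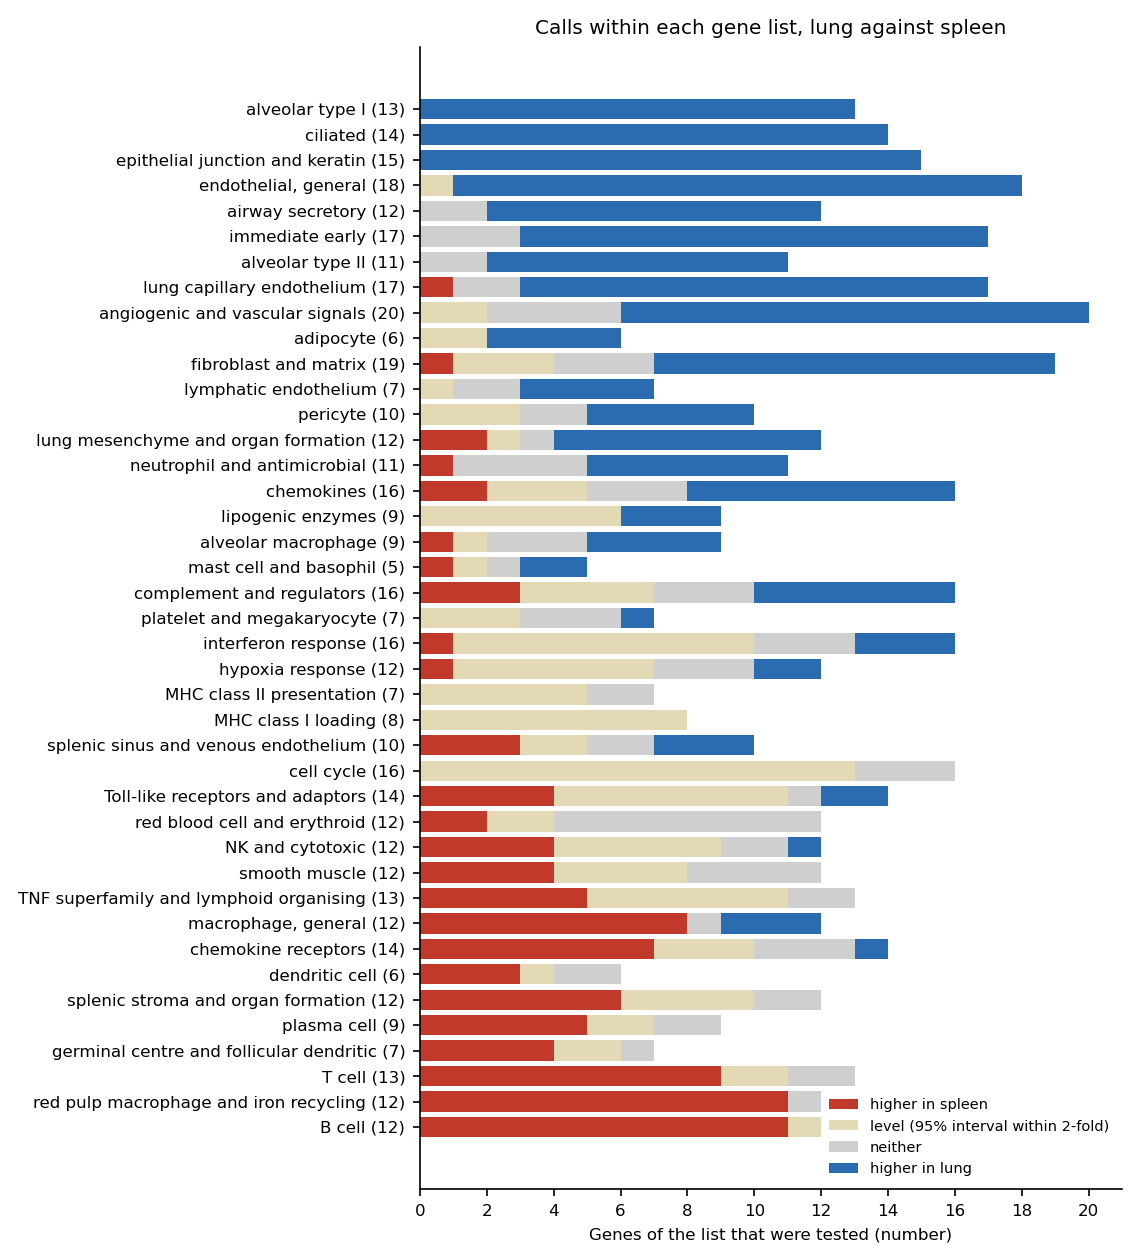
Number of tested genes of each list called higher in spleen (red), level (beige), neither (grey) or higher in lung (blue), with the number tested in parentheses. Epithelial, ciliated, general endothelial and lung capillary lists lie mostly on the lung side, and B cell and red pulp lists on the spleen side. The splenic sinus and venous list is divided, and MHC and cell cycle lists hold no gene called for either organ.

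SLA-DQB1, an MHC class II beta chain, ranged from 1194 to 2196 TPM in lung and from 1115 to 1609 TPM in spleen (0.23 ± 0.13, adjusted p = 0.164). Its peptide editors SLA-DMA (298 ± 43 and 336 ± 41 TPM) and SLA-DMB (110 ± 19 and 96.9 ± 13.0 TPM) were level too. CIITA, the master activator of class II genes, named afterwards, overlapped at 16.2 to 36.3 TPM in lung and 16.5 to 39.8 TPM in spleen. Of 7 class II presentation genes, 5 were level and 0 called (1 higher in spleen with median-ratio scaling or without BS4), and all 8 class I loading genes were level, beside 62.1% level over all genes. B2M, the invariant class I chain, ranged from 13488 to 16391 TPM in lung and from 7068 to 17049 TPM in spleen.

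Innate signals separated by class. Neutrophil and antimicrobial genes were higher in lung for 6 of 11 and in spleen for 1, the cathelicidin PMAP-23. In the BS animals alone 3 were higher in lung and 2 in spleen, and in the DSE animals alone 7 and 0, a difference that was not tested for the list. The calcium-binding protein S100A12 ranged from 543 to 2635 TPM in lung and from 6.48 to 477 TPM in spleen (4.52 ± 0.53, adjusted p = 2.85e-05), without overlap. CXCL8, the main neutrophil chemokine, ranged from 37.0 to 437 TPM in lung and from 0.404 to 1.40 TPM in spleen. Of 16 chemokines, 8 were higher in lung, among them CXCL2 and CCL2, and 2 in spleen, CXCL12 and the T cell chemokine XCL1 (21.9 ± 5.7 against 7.65 ± 1.52 TPM). The lymphoid chemokine CCL19 was level (67.4 ± 12.7 TPM in lung, 50.3 ± 11.1 in spleen). Chemokine receptors went the other way: 7 of 14 were higher in spleen (4 in the DSE animals alone) and 1 in lung.

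Of 14 Toll-like receptor and adaptor genes, 4 were higher in spleen, 2 in lung and 7 level. TLR8, which senses RNA in endosomes, ranged from 45.1 to 162 TPM in spleen and from 2.75 to 12.8 TPM in lung (-3.69 ± 0.24). TLR3, a sensor of double-stranded RNA, was higher in lung (13.9 ± 4.5 against 4.46 ± 1.39 TPM). The adaptor MYD88 was level. Of 16 interferon response genes, 9 were level, 3 were higher in lung and STAT2 was higher in spleen (112 ± 22 against 48.7 ± 12.1 TPM). The interferon counts lay near the shares over all genes, 62.1% level, 18.2% higher in lung and 7.18% higher in spleen. Among complement genes, C5 ranged from 100 to 625 TPM in lung and from 0.0901 to 0.778 TPM in spleen (7.55 ± 0.29, adjusted p = 7.86e-09). C3, on which the pathways converge, ranged from 303 to 458 TPM and from 27.3 to 101 TPM. In all, 6 of 16 complement genes were higher in lung and 3, the C1q chains, in spleen. Of 13 TNF superfamily genes, 5 were higher in spleen and 0 in lung. They included lymphotoxin beta, LTB, which organises lymphoid tissue (148 ± 54 against 23.2 ± 11.7 TPM), and TNFSF11, the RANK ligand (5.80 ± 1.40 against 0.43 ± 0.23 TPM).

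Most vessel genes were higher in lung. Of 18 general endothelial genes, 17 were higher in lung and 0 in spleen (median 1.97). The summed level of the list ran from 1399 to 2530 TPM in lung and from 309 to 536 TPM in spleen. CDH5, the cadherin of endothelial junctions (chromosome 6: 27107577-27142177), ranged from 190 to 336 TPM in lung and from 16.2 to 29.9 TPM in spleen (3.5 ± 0.19, adjusted p = 7.37e-08). Von Willebrand factor, VWF, ranged from 74.9 to 151 TPM in lung and from 4.12 to 9.46 TPM in spleen (4.05 ± 0.16). PECAM1, which leukocytes and platelets also carry and which was named afterwards, stood at 454 ± 78 and 70.4 ± 12.8 TPM. TIE1, an endothelial receptor tyrosine kinase, was the exception. It ranged from 36.0 to 55.5 TPM in lung and from 28.9 to 60.6 TPM in spleen, and was higher in lung in 4 of 8 animals (0.15 ± 0.14, adjusted p = 0.382).

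Most lung capillary genes were lower in spleen, where their summed level ran from 304 to 724 TPM against 1415 to 2327 TPM in lung. CA4, the carbonic anhydrase on the alveolar capillary surface, ranged from 50.2 to 135 TPM in lung and from 0.0463 to 5.36 TPM in spleen (5.59 ± 0.27). PRX, which marks lung endothelium, ranged from 69.8 to 154 TPM in lung and from 1.47 to 2.58 TPM in spleen. The endothelin receptor EDNRB stood at 71.8 ± 18.5 against 2.37 ± 0.64 TPM, and TMEM100, named afterwards, at 432 ± 110 against 24.3 ± 14.0 TPM. Of 17 lung capillary genes, 14 were higher in lung (median 2.82). KIT, a stem cell factor receptor that mast cells and progenitors also carry, was the 1 higher in spleen (-1.09 ± 0.22), a call lost in the BS animals alone and without BS2.

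Of 10 splenic sinus and venous genes, 3 were higher in spleen (5 with median-ratio scaling or in the BS animals alone), 3 in lung and 2 were level. Over all genes these shares were 7.18%, 18.2% and 62.1%. MADCAM1, the lectin CLEC4G (15.5 ± 12.1 against 0.0872 ± 0.0741 TPM) and WT1 were on the spleen side. WT1 is also on the stroma and mesothelium lists, so its call is not particular to vessels. LYVE1, a hyaluronan receptor of lymphatic and some sinusoidal endothelium and of some macrophages, was on the lung side, at 86.8 to 299 TPM against 10.8 to 22.1 TPM in spleen. P-selectin, SELP, stood at 17.2 ± 6.35 TPM in lung and 1.36 ± 0.45 TPM in spleen. The scavenger receptor STAB1 was level (19.1 ± 6.7 and 22.1 ± 10.5 TPM). Of 7 lymphatic genes 4 were higher in lung, while PROX1, the defining lymphatic factor, was level at 1.22 ± 0.33 and 1.28 ± 0.39 TPM. Podoplanin, PDPN, on the same list and also a type I cell gene, stood at 151 ± 31 and 2.82 ± 1.63 TPM.

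The signals that act on vessels were mostly higher in lung, 14 of 20 with 0 higher in spleen (median 1.5). VEGFA, the main endothelial growth factor, ranged from 107 to 257 TPM in lung and from 15.7 to 33.2 TPM in spleen (2.94 ± 0.19). Endothelin-1, EDN1, stood at 44.4 ± 18.2 against 2.07 ± 0.61 TPM, and the type II BMP receptor BMPR2 at 69.6 ± 42.0 against 10.6 ± 3.7 TPM. The hypoxia factor EPAS1, also called HIF-2 alpha, ranged from 637 to 1109 TPM in lung and from 125 to 203 TPM in spleen, whereas HIF1A was level (86.6 ± 15.01 and 84.1 ± 15.7 TPM). Of 12 hypoxia genes 6 were level, beside 62.1% level over all genes.

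Contractile genes were the muscular counterpart. ACTA2, smooth muscle actin, ranged from 436 to 943 TPM in lung and from 307 to 1380 TPM in spleen and was level (-0.04 ± 0.20, adjusted p = 0.897). Calponin, CNN1, ranged from 125 to 432 TPM in spleen and from 39.6 to 138 TPM in lung, and desmin, DES, from 236 to 882 and from 131 to 296 TPM. Both were higher in spleen in 8 of 8 animals, although the ranges met. Of 12 smooth muscle genes 4 were higher in spleen, 0 in lung and 4 level (1 in the DSE animals alone). Pericyte genes were higher in lung for 5 of 10, led by HIGD1B (143 ± 73 against 4.42 ± 2.92 TPM), and PDGFRB and NOTCH3 were level.

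A shared set was defined as genes at least 2-fold above heart, kidney and liver in both organs, with all 6 differences past the test. It held 1635 of the 15230 genes (10.7%), and 85 (0.558%) were below all 3 organs in both. Only genes averaging 1 TPM or more in lung or spleen entered, which leaves out genes found only in the other organs. The 1635 and the 85 therefore cannot be weighed against each other. Of the 1635 genes, 888 (54.3%) were level between lung and spleen, 409 (25%) were higher in spleen and 89 (5.44%) in lung. Over all genes tested these shares were 62.1%, 7.18% and 18.2%. The median difference of the 1635 genes was -0.294, beside 0.137 over all genes. TPM gives each gene relative to the library total, and the size of the set depended on the scaling. With median-ratio scaling 544 genes remained, all of them among the 1635, with 205 higher in spleen, 28 in lung and 199 level, and 434 genes were then below the other organs.

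CD48, a surface protein of leukocytes, ranged from 49.7 to 86.0 TPM in lung and from 64.4 to 96.8 TPM in spleen, with 11 TPM as the highest value of the other organs, in liver. GP91-PHOX, the catalytic subunit of the phagocyte NADPH oxidase, was likewise level (75.9 to 180.1 TPM in lung, 73.1 to 218 in spleen). LAPTM5, a lysosomal protein of leukocytes, was level by the interval yet higher in spleen in 8 of 8 animals (458 ± 88 and 733 ± 132 TPM, -0.68 ± 0.14, adjusted p = 0.00136). Its interval stayed within 2-fold in 7 of 16 settings, and the difference ran from -0.88 to -0.56. IL2RG, the common cytokine receptor chain, was also higher in spleen in 8 of 8 animals with an interval within 2-fold (65.4 ± 12.1 and 106 ± 15 TPM), which held in 13 of 16 settings.

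By list, the shared set held 11 of 12 B cell, 11 of 13 T cell, 10 of 12 natural killer, 7 of 7 class II, 8 of 8 class I and 16 of 16 cell cycle genes. With median-ratio scaling these became 6, 3, 2, 5, 3 and 12. MARCO, CD3E, SLA-DQB1 and MS4A1 were in the set under both scalings, while B2M, CIITA, C1QA, PCNA and ACTA2 left it. MARCO had liver values from 0.787 to 112 TPM and at most 2.47 TPM in heart and kidney. PCNA, the replication clamp, overlapped in the 2 organs at 45.5 to 89.7 TPM in lung and 46.4 to 90.7 TPM in spleen, and reached at most 29.2 TPM elsewhere, in kidney. Of 18 general endothelial genes TIE1 alone was shared, and it left the set with median-ratio scaling. Of 12 smooth muscle genes 7 were shared, among them ACTA2, TAGLN and MYH11, and 2 with the other scaling.

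**Figure D4:**
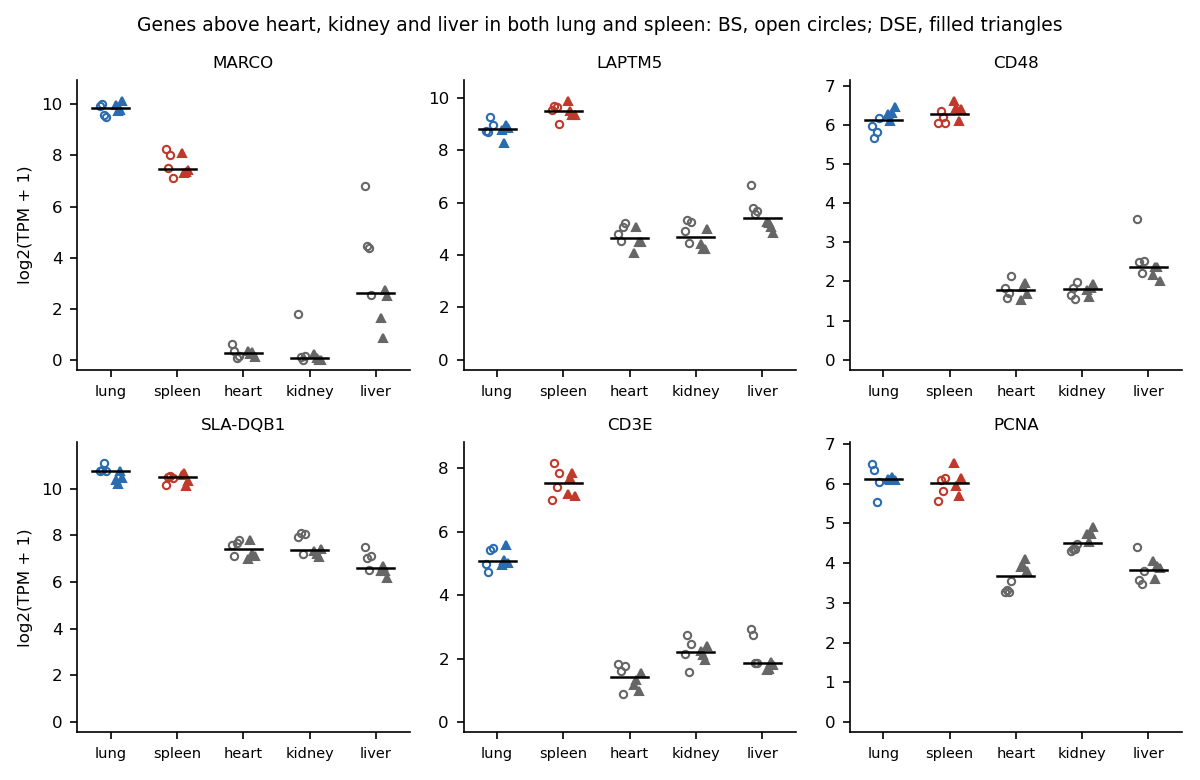
Level of 6 shared genes in the 8 libraries of each organ as log2(TPM + 1), with lung in blue, spleen in red, the other organs in grey, BS as open circles, DSE as filled triangles and the median as a bar. For all 6 genes the lung and spleen libraries lie above those of heart, kidney and liver, and LAPTM5, CD48, SLA-DQB1 and PCNA overlap between lung and spleen.

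Genes of blood cells and of cell state were also read. Hemoglobin beta, HBB, named afterwards, ranged from 1033 to 13295 TPM in lung and from 656 to 26968 TPM in spleen, highest in the spleens of BS1, BS2 and BS4, and did not pass (-0.79 ± 0.52, adjusted p = 0.22). Of 12 red cell genes 2 were called, both higher in spleen, SLC4A1 and CA1, and both calls failed in several settings. Immediate early genes, which respond to stimulation within minutes, were higher in lung for 14 of 17 (median 2.39). NR4A1 stood at 275 ± 135 against 23.0 ± 11.3 TPM and KLF4 at 159 ± 26 against 14.5 ± 4.4 TPM. FOS, named afterwards, ranged from 147 to 1021 TPM in lung, lowest in DSE2, and from 79.1 to 142 TPM in spleen. Of 9 lipogenic enzymes 3 were higher in lung and 6 level, beside 18.2% higher in lung and 62.1% level over all genes. The 3 included the desaturase SCD, which type II cells use for surfactant lipid, at 120 ± 27 against 14.9 ± 4.7 TPM. Cell cycle genes were level for 13 of 16, with 0 called, and 8 were level with median-ratio scaling and 6 in the DSE animals alone or without BS1, BS2 and BS4.

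Markers of other organs were low in both. Summed over 8 heart muscle genes, levels ran from 5.66 to 58.7 TPM in lung (20.1 TPM without DSE2) and from 4.90 to 12.9 TPM in spleen, and the atrial peptide gene NPPA was at 0 in all spleen libraries. Kidney epithelium markers summed to at most 1.75 TPM in lung (0.927 TPM without BS3) and 6.22 TPM in spleen. Hepatocyte markers summed to 58.2 to 118 and 61.1 to 127 TPM, mostly from APOA1 (76.2 ± 20.1 and 81.8 ± 22.5 TPM), with albumin, ALB, at 2.18 ± 3.65 and 2.01 ± 4.04 TPM. Exocrine pancreas markers, which could enter with a spleen sample, summed to at most 1.26 TPM in spleen and 1.71 TPM in lung.

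The organ difference itself varied between pig groups for 20 genes (0.131%), 9 with the larger lung minus spleen value in BS and 11 in DSE. The samples of both groups share the codes only, so what separates the groups is not stated. PG-2, a protegrin, an antimicrobial peptide of pig neutrophils, stood at 41.1, 26.1, 9.48 and 115 TPM in the spleens of BS1 to BS4, and between 1.46 and 4.52 TPM in those of DSE1 to DSE4. In lung it ranged from 0 to 9.48 TPM in BS and from 1.07 to 2.12 TPM in DSE. The organ differences were -3.97 in BS and -0.37 in DSE (difference -3.60 ± 0.33 SE, adjusted p = 0.00936). NPG3, another protegrin gene, had 11.4 to 73.4 TPM in BS spleens and at most 1.14 TPM in DSE spleens (difference -4.38, adjusted p = 0.0438). These genes are near-identical copies, and the reads of each may be split among them. The neutrophil gene S100A12 ran from 26.0 to 477 TPM in BS spleens and from 6.48 to 29.4 TPM in DSE spleens. HBB stood at about 27000, 14300, 1000 and 27000 TPM in the spleens of BS1 to BS4, and at 656 to 6620 TPM in DSE spleens, so BS3 lay inside the DSE range. The part of either in the result was not tested.

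PGLYRP1, a peptidoglycan-binding protein of neutrophil granules, turned over between groups. It was lower in lung than in spleen in BS (-1.14) and higher in lung in DSE (3.47), with a difference of -4.60 ± 0.62 SE (adjusted p = 0.0454). Its lung values were 3.67 to 7.84 TPM in BS and 10.5 to 61.6 TPM in DSE, and its spleen values 6.42 to 41.6 TPM in BS and 0 to 1.49 TPM in DSE. CXCL2, a neutrophil chemokine, ranged from 213 to 439 TPM in BS lungs and from 55.5 to 106 TPM in DSE lungs, against 2.71 to 6.12 and 9.15 to 31.9 TPM in spleen (difference 3.82, adjusted p = 0.0458). RND1, a small GTPase, ranged from 27.5 to 95.6 TPM in BS lungs and from 5.03 to 11.3 TPM in DSE lungs (difference 2.62, adjusted p = 0.0432). Cathepsin D, CTSD, a lysosomal protease named after its values were seen, was higher in lung in BS (1658 ± 374 against 890 ± 202 TPM, n = 4) and higher in spleen in DSE (388 ± 78 against 709.8 ± 120.3 TPM, n = 4). These calls were not stable: leaving out 1 animal left between 0 (without DSE4) and 15 (without BS2) of such calls, and an added 0.1 TPM in place of 1 TPM left 2.

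**Figure D5:**
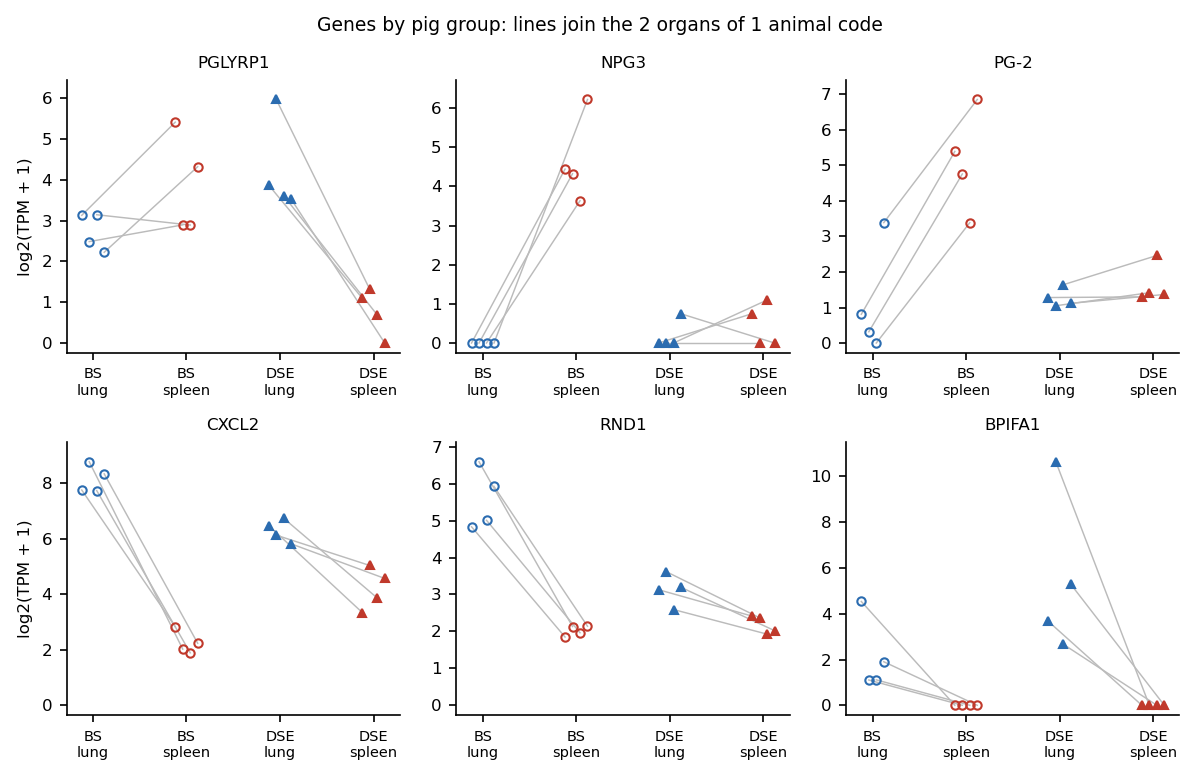
Level of 6 genes as log2(TPM + 1) in lung (blue) and spleen (red) of BS animals (open circles) and DSE animals (filled triangles), with a line joining the organs of 1 animal. PGLYRP1 falls from lung to spleen in all 4 DSE animals and not in BS1, BS2 and BS4, NPG3 and PG-2 rise steeply in the BS animals, and BPIFA1 shows the single high lung of DSE2.

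Full-length PacBio reads gave a second measurement from other libraries of the same organs, with 204718 and 208658 reads from the BS and DSE lung and 119623 and 144216 from the spleen. Of 4110 genes tested (edgeR quasi-likelihood, all 10 libraries, pig group as a term), 401 (9.76%) were higher in lung and 210 (5.11%) in spleen. Of the genes tested by both methods, 609 were higher in lung and 242 in spleen by short reads. Full-length reads called 368 of the 609 and 148 of the 242 in the same direction and 0 in the opposite. With 1 library per group and organ, these tests take the spread from the fit over all organs.

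SCGB1A1 had 286 and 576 reads in the BS and DSE lung and 0 in both spleens, at least 184-fold higher in lung at a floor of 3 reads over the 2 spleen libraries. SFTPA1 was at least 268-fold higher (332 and 919 reads against 0 and 0) and AGER at least 34.0-fold (83 and 76 against 0 and 0). ITGAD had 108 and 60 reads in the spleens and 0 in both lungs, at least 87.2-fold higher in spleen. These bounds cover counting error only. VCAM1 had 1541 and 3000 reads in spleen and 78 and 60 in lung (-5.74, edgeR adjusted p = 1.28e-25), close in size to the short-read difference of -5.20. Short reads and full-length reads also matched in direction for PPARG (2 and 4 reads in lung, 22 and 23 in spleen), LYVE1 (101 and 118 against 10 and 0) and HMOX1 (94 and 74 against 289 and 640). C3 did not pass (257 and 130 reads in lung, 85 and 30 in spleen, adjusted p = 0.112). MARCO with 2 reads in lung and 1 in spleen, and SPIC with 2 in spleen, were too thinly covered to test.

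Organs also differed in which transcripts a gene used. Of 21207 transcripts of 7911 genes, 294 (1.39%) changed their share of the gene by at least 20 percentage points at an adjusted p below 0.05 (limma). They came from 191 genes, 111 of them not called by level, and 175 of the transcripts were assembled from PacBio reads. FER, a cytoplasmic tyrosine kinase, used the transcript PB.3519.32 for 67.0 ± 8.4% of its level in spleen and 0% in every lung library. That transcript starts 42079 bases downstream of the annotated one, at chromosome 2: 113816491, with the same coding length of 2469 bases. CCDC39, a ciliary protein, used ENSSSCT00000012879 for 84.1 ± 14.4% of its level in lung and 3.77 ± 5.22% in spleen. The transcript favoured in spleen by short reads, PB.15962.1, lacks 2 coding exons of 133 and 104 bases. It had 0 full-length reads in both spleens and 1 in the DSE lung. CCDC39 averaged 12.2 TPM in lung and 5.27 TPM in spleen, just above the 5 TPM needed for this test. C4BPA, a complement inhibitor, used PB.12379.3 for 72.1 ± 10.1% in lung and 10.3 ± 10.2% in spleen. Its gene level was 200 ± 78 TPM in lung and a very uneven 32.1 ± 74.1 TPM in spleen. PB.12379.3 had 67 and 80 full-length reads in the BS and DSE lung and 0 in both spleens. PB.12379.2, favoured in spleen by short reads, had 1 read in the BS spleen and 0 in the DSE spleen. So few spleen reads cannot show the share of either transcript. For MCCC1, a mitochondrial carboxylase subunit, ENSSSCT00000022300 made up 78.7 ± 8.9% in lung and 14.5 ± 5.0% in spleen. The transcript favoured in spleen, ENSSSCT00000040972, starts 36030 bases away. The lung transcript holds 7 exons absent from the spleen one, which holds 8 absent from the lung one. Whether the 2 models describe products of 1 gene was not tested.

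The following genes were named after their values were seen, for their link to macrophages, lymphocytes and vessels. PPARG used ENSSSCT00000012672, with a first coding exon of 223 bases at chromosome 13: 68363873-68364095, for 54.9 ± 8.0% of its level in lung and 0.0485 ± 0.0715% in spleen (adjusted p = 1.98e-06). In TPM that transcript stood at 13.2 in lung and 0.0619 in spleen, although the gene as a whole was higher in spleen. The transcript most used in spleen, PB.15558.7, starts 62252 bases upstream and made up 42.6 ± 12.2% there against 21.8 ± 11.3% in lung. FYN, a SRC family kinase, was divided between alternative coding exons. The transcript with the exon of 165 bases (chromosome 1: 77622450-77622614) made up 58.6 ± 7.2% in lung and 20.1 ± 3.8% in spleen. The transcript with the exon of 156 bases (77621935-77622090) made up 41.4 ± 7.2% and 79.8 ± 3.8%, and no library of an organ reached the range of the other. EGFL7, a secreted endothelial protein, used PB.21414.2 for 68.9 ± 6.2% in lung and 17.9 ± 4.7% in spleen, with start sites 2703 bases apart and the same coding length of 825 bases. ENPP2, the lysophospholipase autotaxin, used PB.5380.4 for 26.2 ± 3.5% in spleen and 0% in every lung library.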

How the data were processed

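The deposited gene and transcript tables hold TPM, made by the authors from Illumina reads, and all columns have the same total. Per the submitters' processing notes, the tools were STAR 2.7.10a and Salmon 1.10.1 with susScr11 as genome build. Per the file headers, rtracklayer 1.58.0 exported the annotation. The deposited PacBio table holds raw counts of full-length reads per transcript. Counts were summed per gene, through the transcript or a locus with 1 gene, which placed 87.8% of lung and spleen reads on 8038 genes. No label matches the code of 20 gene columns, 20 transcript columns and 5 full-length columns, which were not used. Short-read depth is unknown, so the precision of low TPM is unknown.

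Genes averaging 1 TPM or more in either organ were tested on log2(TPM + 1) with limma 3.58.1 in R 4.3.3, with the animal as a block, a variance trend and Benjamini-Hochberg adjustment, at 0.05 and 2-fold. The animal code in the titles gives the pairing. As a check, deviations from the organ means correlated between the organs of 1 animal at -0.07 to 0.222, over 0.1 in 4 of 8 pairs. The fit of all 5 organs, the shared set and the test between pig groups used the same scale. Full-length counts of all 10 libraries were tested with edgeR 4.0.16 (TMM, quasi-likelihood), with DESeq2 1.42.0 as an alternative. Transcript usage was tested as log2 of a transcript over its gene's other transcripts, with 0.5 TPM added to both, in genes at 5 TPM or more. The paired comparison, the test between pig groups, the full-length test and the usage test were also run on simulated data. The shared set, the organ pairs and the sign-flip test were not. Figures and joins used python 3.11.15, pandas 2.3.3, numpy 2.4.6 and matplotlib 3.10.9.

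The members and gene lists were chosen with earlier results of these data known. Named genes are the 15 largest differences at 10 TPM or more on each side, up to 5 called members per list and direction and up to 3 level ones, the 15 shared genes farthest above the other organs with 10 level ones, the 6 largest usage shifts and up to 5 differences between pig groups. Exceptions are marked, and CAV1, CDH1, EPCAM, CSF1R, FTL, SCGB3A2, ETV5, TFRC, TAGLN, MYH11, ADIPOQ and NKX2-1 were also named after their values were seen. Alternatives were another pseudocount, filter, scaling, block, set of animals and tool, and leaving out each animal. The use of strand in the authors' counting is not given in the sources used here. Among the genes described, JCHAIN, CXCR5, SLA-DQB1, B2M, MYD88, HIGD1B, CAPS, IL2RG and CCDC39 overlap another gene at 5 TPM or more, or share a joint identifier with one, and the reads of the partners cannot be told apart. Some genes of the lists are not reported here.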

Additional observations from a re-analysis of the deposited data

Results flagged for a closer look

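In groups of 8 libraries, a library stood apart from the other 7 in 8 of 124 gene and organ groups checked, and chance gives about 1 in 20. Of these, 3 were lungs of DSE2: the airway protein BPIFA1 at 1600 TPM (next highest 38.1), PGLYRP1 at 61.6 TPM (next 13.6) and the contractile gene CNN1 at 138 TPM (next 67.3). The same lung also held the highest JCHAIN and the lowest FOS level. Another 2 were BS3 libraries: SCGB1A1 in spleen at 1.67 TPM (next 0.329) and IL2RG in lung at 92.4 TPM (next 69.4). In BS4, SPIC in lung stood at 1.55 TPM (next 0.763) and PPARG in spleen at 65.6 TPM, the lowest (next 113). The lung of BS2 had the lowest SCGB3A1 level, 28.5 TPM (next 153).

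For 5 of the named genes the lung minus spleen difference itself differed between BS and DSE animals in the fit with that term: PGLYRP1 by -4.6, NPG3 by -4.38, PG-2 by -3.6, CXCL2 by 3.82 and RND1 by 2.62 on the log2 scale (BS minus DSE). Of 12 alternative settings the call held in 9 for PG-2, 5 for RND1 and NPG3, 4 for PGLYRP1 and 3 for CXCL2.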

How the results depend on the processing

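No called result of the settings run changed direction. Counts of genes higher in lung ran from 2177 (filter at 5 TPM) to 3294 (0.1 TPM added), and in spleen from 897 to 1370, and without 1 animal from 2693 to 2902 and from 1021 to 1131. The shared set moved to 544 genes with median-ratio scaling and to 513 at 4-fold, and ran from 1580 to 1686 without 1 animal. Differences between pig groups numbered 20 with the animal block and 51 with no replicate block, 2 with 0.1 TPM added, 10 with a filter at 5 TPM, 26 with median-ratio scaling and from 0 (without DSE4) to 15 (without BS2) when 1 animal was left out. At an unadjusted p under 0.05, 1678 genes differed. For full-length reads DESeq2 called 239 higher in lung and 153 in spleen, a fit with no pig group term 229 and 75, and leaving out 1 library from 196 to 279 and from 85 to 133. Transcript usage calls ran from 199 to 314. Without the animal block the paired comparison gave 2772 and 1090 genes, the shared set 1631 and usage 314, and the pairing changed no other count by over 1.5 times.

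Of the called genes described in the report, JCHAIN, GZMB, CCL2, PDGFRA, CA1, PG-2 and RND1 did not pass in the DSE animals alone, nor did GZMB, TIMD4, KIT and CA1 in the BS animals alone. The cause was not tested. NPG3 averaged 0.17 TPM in lung and 0.456 TPM in spleen of the DSE animals. That is under the 1 TPM filter, so NPG3 was not tested in the DSE animals alone. The call for PPARG PB.15558.7 held in 5 of 11 settings. Short-read depth is unknown, and full-length reads are too few to test SPIC and MARCO. Alternatives chosen after seeing the data were the list counts with median-ratio scaling, without DSE2 and without BS1, BS2 and BS4, the pig group counts with no replicate block, and leaving out each full-length library. Without BS1, BS2 and BS4, 3 of the plasma cell genes and 0 of the neutrophil genes were higher in spleen. Over all settings, the neutrophil genes higher in lung numbered 3 to 7.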
